A study of Homo sapiens with 4 samples.

Results

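The nuclear-encoded genes of the mitochondrial respiratory chain were taken by symbol, as the autosomal protein-coding genes whose names begin with NDUF, UQCR, COX4 to COX8, ATP5F, ATP5M or ATP5P, together with SDHA, SDHB, SDHC, SDHD and CYC1. The rule uses symbols and no measured value. It gave 93 genes of 19122 autosomal protein-coding genes in the annotation. By role, 36 encode subunits of complex I, 8 encode assembly factors of complex I (the NDUFAF genes), 4 belong to complex II, 10 to complex III, 16 to complex IV and 19 to complex V. A further 3 genes with such symbols, NDUFB11, COX7B and NDUFA1, lie on chromosome X and were left out by the rule. A pair of readthrough genes, NDUFC2-KCTD14 and ATP5MF-PTCD1, share their 5′ ends with NDUFC2 and ATP5MF (distance 0 bp) and add no independent promoter. The counts and intervals below include them unless stated, so these shared windows are counted more than once.

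Complexes I and II pass electrons from NADH and succinate to ubiquinone, complex III passes them on to cytochrome c, and complex IV passes them to oxygen. Complexes I, III and IV pump protons across the inner mitochondrial membrane, and complex V, the ATP synthase, uses the resulting gradient to make ATP. A few subunits come from mitochondrial DNA and the others from nuclear genes, most of which are active in nearly every cell type from promoters rich in CpG dinucleotides. AML cells have been described as relying strongly on oxidative phosphorylation.

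The histone acetylation H3K27Ac, which marks promoters and enhancers in use, was profiled by ChIPmentation, a form of ChIP-Seq in which immunoprecipitated DNA is tagged with adapters by the Tn5 transposase. MOLM13 cells, a human AML line with MLL1-r (a rearranged MLL1 gene, carried by the cells of both conditions), were left as control (treatment given as None in the labels, where the treatment protocol names DMSO) or exposed to 500 nM of SNDX-50469, a Menin inhibitor, for 16 h. Each condition has 1 H3K27Ac library, from 1 cell line, so that no difference has a replicate check and no p-value is given. The comparison asks which of these genes still carried an H3K27Ac peak following SNDX-50469 treatment.

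The values come from 1 list of broad peaks per library on hg38. The covered length is the number of bp under a peak, and the kept share gives how much of it, in percent of the control bp, SNDX-50469 peaks covered too. Both were taken within 1 kb of the 5′ end (2001 positions, called the 5′ window) and from 5 kb before to 5 kb after the gene (the region). The control list holds 245875 peaks over 224 Mb and the SNDX-50469 list 54061 peaks over 29.4 Mb, with no read totals, so the depth of the libraries is unknown. Chromosome 8 holds 10.5% of the control peaks and 41.9% of the SNDX-50469 peaks, so its 5 members (NDUFAF6, UQCRB, COX6C, NDUFB9 and CYC1) are given apart where they carry a value. Control peaks lay at the 5′ ends of 6 of 6 genes that mark myeloid and MLL1-r AML cells (SPI1, CEBPA, CD33, FLT3, HOXA9 and MEIS1). They lay at 1 of 4 genes of other cell types, MS4A1, while the 5′ windows of ALB, HBB and CD3E were at 0 bp. Over the region, control peaks covered 7866 bp at MS4A1 and 9490 bp at CD3E, and none at ALB and HBB.

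In control cells 85 of the 93 genes (91.4%, Wilson 95% interval 83.9 to 95.6) had an H3K27Ac peak in the 5′ window, where the share over 18823 autosomal protein-coding genes with a known 5′ end was 61.1%. Following SNDX-50469 treatment 57 of 93 (61.3%, 51.1 to 70.6) had one, against 31.1% of all genes. Of the 85 genes marked in control, 57 (67.1%, 56.5 to 76.1) were still marked, against 50.1% of all genes marked in control. These intervals cover counting error only, and with 1 library per condition they do not carry the variation between cultures. With all peaks taken, the respiratory chain genes thus lay above the background in both lists, and 28 genes had a 5′ peak in control cells and none after treatment.

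Over the 93 windows the control list covered 134181 bp and the SNDX-50469 list 55744 bp, of which 54731 bp were shared. The kept share was 40.8%, against 34.5% over all genes. The median gene was covered over 1609 bp in control and 526 bp after treatment, where the medians of all genes were 719 and 0 bp. The window was covered from end to end at 27 genes in control (29.0%, against 17.3% of all genes). After treatment it was so at 3 of 93, NDUFAF3, NDUFAF6 and UQCRH, and at 541 of 18823 over all genes. These shares are close, so full coverage after treatment does not set the members apart.

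This order of the lists depends on how many peaks are taken from each. When the weakest control peaks were dropped until those left covered 29.4 Mb, as much as the SNDX-50469 list, 25 respiratory chain genes (26.9%) had a control 5′ peak against 57 with an SNDX-50469 peak. The order turned likewise over all genes, with 12.3% in control and 31.1% after treatment. At a −log10 q of at least 5 in both lists the counts were 56 (60.2%, against 28.5% of all genes) and 4 (4.30%, against 3.84%). At that cutoff the members' share after treatment thus lay near that of all genes. With 1 library per condition, an effect in the cells and a difference in depth or background between the libraries cannot be told apart.

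**Figure D1:**
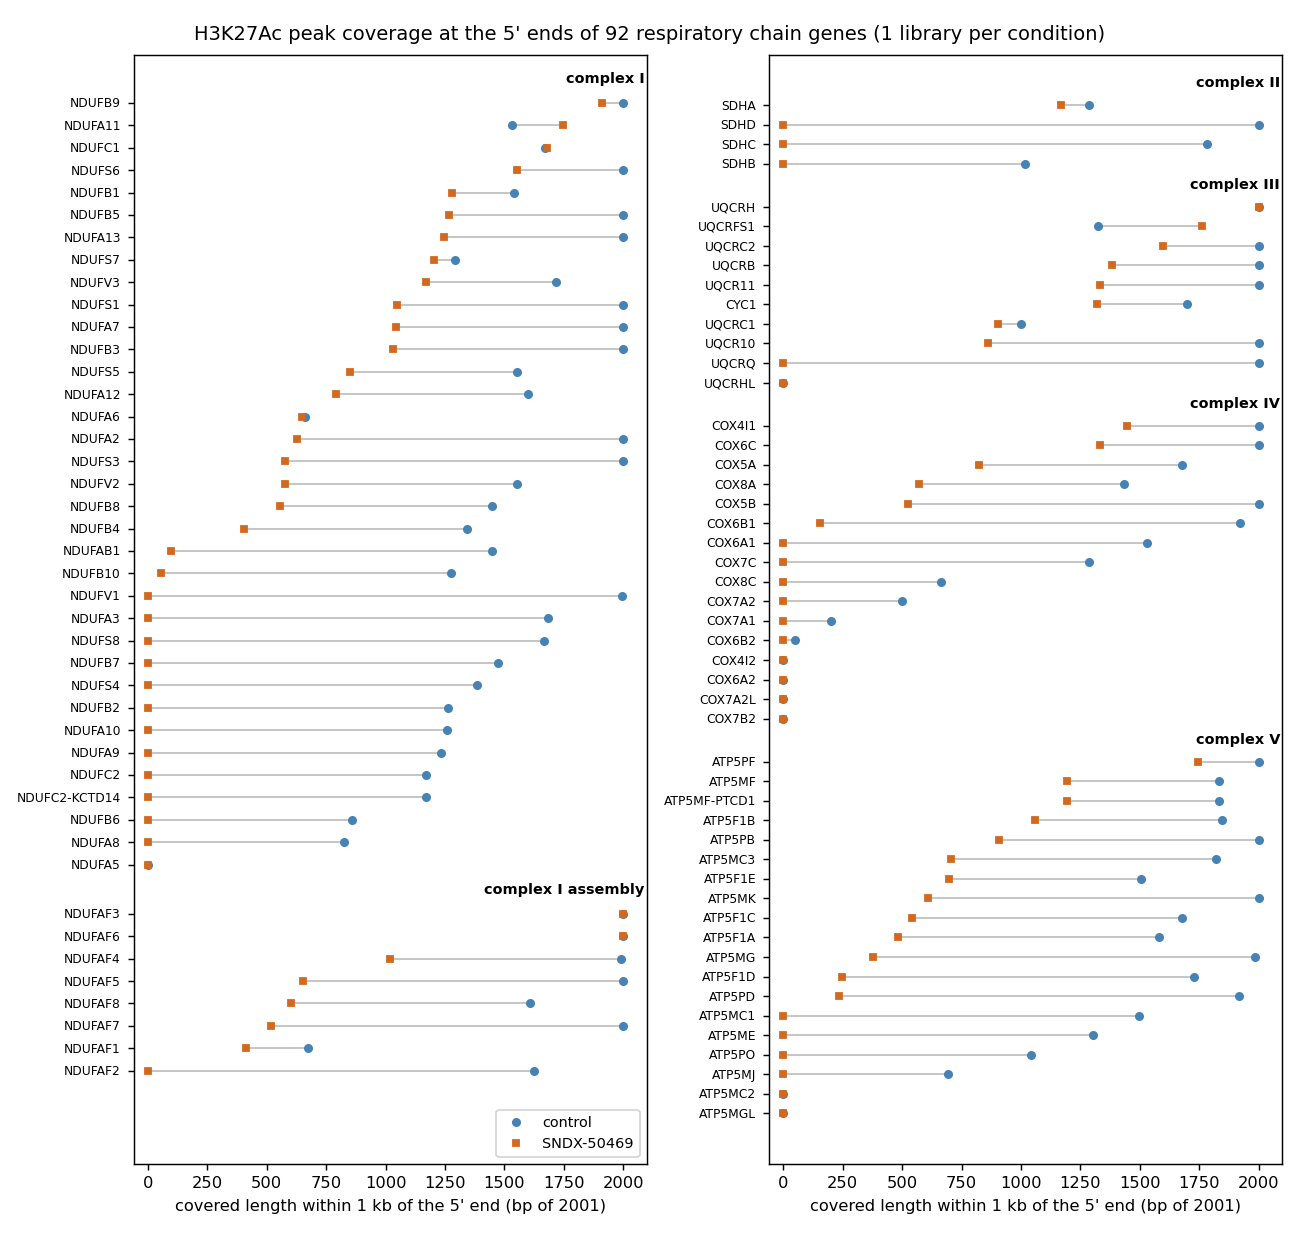
Covered length in the 5′ window (x axis, bp) of 92 of the 93 genes, grouped by complex, in control (blue circles) and after SNDX-50469 (orange squares), 1 library per condition and so no error bars. The orange square lies left of the blue circle at 78 genes, right of it at 3 (NDUFA11, NDUFC1 and UQCRFS1), both lie at 0 at 8, and both lie at 2001 bp at NDUFAF3, NDUFAF6 and UQCRH.

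Along the promoters, control coverage was highest 400 bp downstream of the 5′ end, where 87.1% of the 93 genes were under a peak, and stayed above the middle of its height from 900 bp upstream to 1400 bp downstream. The SNDX-50469 coverage was highest at 200 bp downstream with 46.2% of genes, and its corresponding range was shorter, from 400 bp upstream to 700 bp downstream. Over all genes the highest values were 51.3% in control and 20.2% after treatment. Within the 5′ window the transcribed side was covered more than the upstream side in both lists. The downstream kilobase was covered over 82.5% of its length in control and 34.3% after treatment, and the upstream kilobase over 61.7% and 25.6%. The kept shares of the sides were close, at 41.5% downstream and 39.8% upstream.

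**Figure D2:**
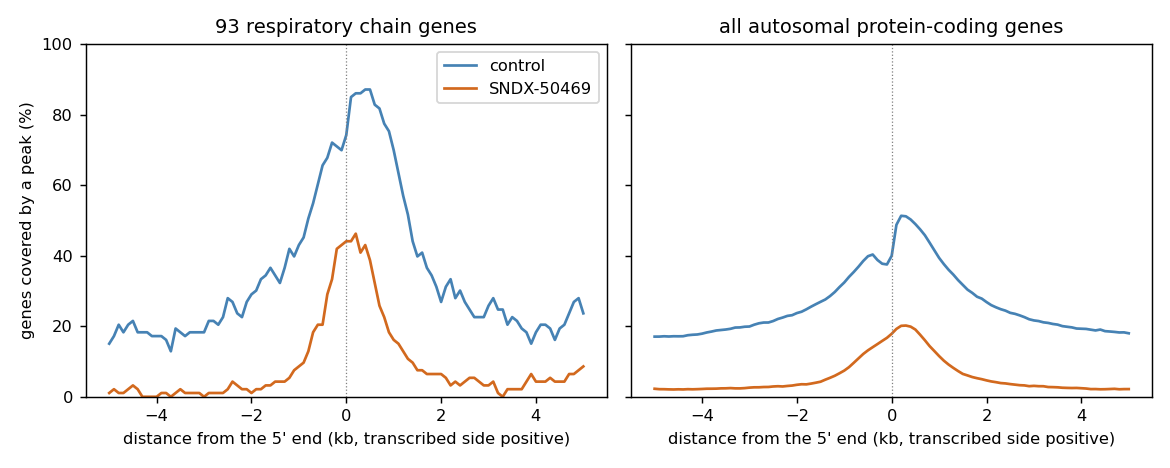
Percent of genes under an H3K27Ac peak (y axis) by distance from the 5′ end (x axis, kb), for the 93 respiratory chain genes (left) and all autosomal protein-coding genes (right), in steps of 100 bp. Both curves of the respiratory chain genes rise to higher maxima (87.1% and 46.2%) than those of all genes (51.3% and 20.2%), and the SNDX-50469 curve is the narrower one.

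The promoters of a few members are printed because they hold the ends of the range. UQCRH, UQCRFS1 and NDUFA11 kept all of the control coverage of their 5′ windows (2001 of 2001 bp at UQCRH, 1325 at UQCRFS1, 1534 at NDUFA11), and their RefSeq entries list no other start. SDHB and SDHD, with 1019 and 2001 bp in control, were at 0 bp after treatment, and SDHA kept 90.6%. Each sequence is the 150 bases upstream of the gene's start in RefSeq, build GRCh38.p14, 5′ to 3′ on the gene's own strand, and its last base is next to the start. Capitals mark letters that match, on either strand, the cores GCGCANGC (NRF1, a regulator of nuclear genes for mitochondria), CCGGAAG (ETS factors such as GABPA), GGGCGG (SP1) or CACGTG (the E-box). The stretches lie at chr1:46303548-46303697 on the plus strand (UQCRH), chr19:29213152-29213301 on the minus strand (UQCRFS1), chr19:5903791-5903940 on the minus strand (NDUFA11), chr5:218170-218319 on the plus strand (SDHA), chr1:17054033-17054182 on the minus strand (SDHB) and chr11:112086723-112086872 on the plus strand (SDHD).
UQCRH: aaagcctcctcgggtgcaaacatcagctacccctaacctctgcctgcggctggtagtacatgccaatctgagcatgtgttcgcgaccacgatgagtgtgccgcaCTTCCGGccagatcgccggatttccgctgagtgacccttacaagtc
UQCRFS1: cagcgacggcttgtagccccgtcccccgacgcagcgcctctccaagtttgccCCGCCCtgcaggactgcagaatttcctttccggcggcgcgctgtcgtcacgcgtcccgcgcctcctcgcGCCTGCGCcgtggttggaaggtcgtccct
NDUFA11: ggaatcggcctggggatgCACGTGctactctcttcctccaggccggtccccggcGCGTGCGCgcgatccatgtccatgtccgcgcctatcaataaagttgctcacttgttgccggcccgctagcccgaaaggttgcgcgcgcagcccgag
SDHA: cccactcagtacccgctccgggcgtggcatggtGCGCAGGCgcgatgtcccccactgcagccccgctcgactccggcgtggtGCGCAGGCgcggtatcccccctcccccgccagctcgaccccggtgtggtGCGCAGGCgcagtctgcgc
SDHB: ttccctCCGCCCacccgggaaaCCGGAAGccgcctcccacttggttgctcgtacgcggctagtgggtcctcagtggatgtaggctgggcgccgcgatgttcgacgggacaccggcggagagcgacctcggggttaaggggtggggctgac
SDHD: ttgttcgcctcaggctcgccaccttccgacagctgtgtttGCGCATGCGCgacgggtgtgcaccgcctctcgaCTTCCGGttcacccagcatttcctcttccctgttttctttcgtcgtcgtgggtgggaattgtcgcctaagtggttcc

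In the SDHA stretch the capitals mark 3 NRF1 matches of the same letters. In SDHD they mark an overlapping pair of NRF1 matches and an ETS match, in UQCRH an ETS match, in UQCRFS1 an SP1 and an NRF1 match, in NDUFA11 an E-box and an NRF1 match, and in SDHB an SP1 and an ETS match. Among the printed stretches, genes that kept their 5′ peak and genes that did not thus shared kinds of motif. NDUFAF3 and NDUFC1 also kept all of their control window coverage (2001 and 1673 bp). Their RefSeq entries list another start, 1669 and 1341 bp away, and their stretches are not printed. In the 150 bases upstream of their outermost ends, NDUFAF3 had none of these motifs and NDUFC1 only an SP1 match.

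Over the 74 members with an entry in the RefSeq promoter set (250 bases before to 50 after the start, both strands), GCGCANGC was present in 31 (41.9%), against 16.7% of 15100 promoters of all genes. CCGGAAG was present in 21 (28.4%, against 14.3%), and AANATGGC, the core of YY1, in 22 (29.7%, against 7.93%). At least 1 of these 3 motifs was present in 48 members (64.9%), against 32.5% of all promoters. Most members had a control 5′ peak, and promoters of all genes with such a peak held these motifs more often. In those promoters the shares were 21.6% (NRF1), 19.9% (ETS), 10.4% (YY1) and 42.6% (at least 1 of the 3). GGGCGG was about as frequent in members (42, 56.8%) as in all promoters (58.7%), but less so than in promoters with a control peak (67.6%). CACGTG was found in 8 members (10.8%), against 8.71% of all promoters and 10.5% of those with a control peak. The cyclic AMP response element TGACGTCA was found in 5 members (6.76%, against 2.62% and 3.29%). The motifs were searched separately and may overlap each other, and the median GC content of the members' promoters was 61%, against 62.7%. A match says only that the letters are there.

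Among members with a control 5′ peak, the SNDX-50469 peak was present at 19 of 30 with an NRF1 match (63.3%) and at 26 of 39 without (66.7%). With an ETS match it was present at 15 of 21 (71.4%) and without at 30 of 48 (62.5%), and for YY1 at 14 of 21 (66.7%) and 31 of 48 (64.6%). With an SP1 match it was present at 29 of 41 (70.7%) and without at 16 of 28 (57.1%), and for the E-box at 6 of 8 (75.0%) and 39 of 61 (63.9%). Among members the gap between those with and without a match was thus smallest for YY1 and NRF1, with no test made. All genes with a control 5′ peak gave another order, with the widest gap for YY1 (66.1% with a match, 48.6% without). Their shares were 57.2% and 48.6% for NRF1, 57.3% and 48.7% for ETS, 52.3% and 46.4% for SP1, and 56.6% and 49.7% for the E-box. The members' groups are small, so their order of gaps is uncertain. The 5 members with TGACGTCA (ATP5MC1, ATP5ME, NDUFA10, NDUFB2 and SDHB, named after their values were seen) were covered over 1019 to 1495 bp in control, and 0 of 5 (Wilson interval 0 to 43.4%) had an SNDX-50469 peak. Over all genes 58.3% of those with this motif and a control peak had one. Members with 1001 to 1500 bp of control coverage had one in 8 of 20, a group that includes these 5 members.

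Complex I is built around a core of subunits that carry the electrons, of which 7 are encoded in the nucleus. NDUFV1, which binds the flavin that accepts electrons from NADH, was covered over 1993 bp of its 5′ window in control and 0 bp after treatment. NDUFV2 and NDUFS1, iron-sulfur proteins of the same entry module, were covered over 1555 and 2001 bp in control and 576 and 1047 bp after treatment. Of the core subunits nearer to the ubiquinone site, NDUFS7 was covered over 1293 bp and then 1206 bp, so that 93.3% of its window coverage was kept. NDUFS3 was covered over 2001 and 577 bp (28.8% kept). NDUFS8, with 1667 bp in control, was at 0 bp after treatment. The core genes of complex I thus ranged from nearly all of the window kept to none.

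Of the 36 complex I subunit genes, 35 had a 5′ peak in control and 22 (61.1%, 44.9 to 75.2) after treatment, and the complex kept 38.7% of its window coverage. The accessory subunits, which surround the core, spread as widely. NDUFA11 was covered over more of its window after treatment (1747 bp) than in control (1534 bp). NDUFC1 was covered over 1673 and 1679 bp. NDUFB9, on chromosome 8, kept 95.6% (2001 and 1912 bp) and NDUFA6 97.0% of a short control peak (662 and 647 bp). At the other end 9 accessory genes, the readthrough gene not counted, had 826 to 1683 bp in control and 0 bp after treatment, among them NDUFA3 (1683 bp), NDUFB7 (1474 bp) and NDUFA8 (826 bp).

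The assembly factors of complex I, which help to build it and are no part of the finished enzyme, had a 5′ peak at 8 of 8 genes in control and 7 of 8 after treatment, with 51.9% of the window coverage kept. NDUFAF3 and NDUFAF6 were covered over all 2001 bp in both lists. NDUFAF2 went from 1623 bp to 0 bp, and the other 5 kept between 25.9% (NDUFAF7) and 61.4% (NDUFAF1).

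Complex II has 4 subunits, all nuclear. SDHA, the flavoprotein that oxidises succinate, was covered over 1286 bp in control and 1170 bp after treatment. SDHB, the iron-sulfur subunit, was covered over 1019 and 0 bp, and the membrane anchors SDHC and SDHD over 1784 and 2001 bp in control and 0 bp after treatment. SDHB, SDHC and SDHD also had no SNDX-50469 peak anywhere in their regions, where control peaks covered 7133, 6642 and 3714 bp. The only complex II gene with a 5′ peak in the SNDX-50469 list was therefore SDHA (1 of 4, 25.0%, 4.56 to 69.9).

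In complex III, 9 of 10 genes had a 5′ peak in control and 8 of these 9 (88.9%, 56.5 to 98.0) after treatment, and 66.7% of the window coverage was kept. UQCRFS1, the Rieske iron-sulfur protein, was covered over 1325 bp in control and 1760 bp after treatment. CYC1, a haem-bearing cytochrome of the complex, was covered over 1697 and 1320 bp, and the core proteins UQCRC1 and UQCRC2 over 999 and 902 bp and over 2001 and 1599 bp. UQCRH, the hinge protein that contacts cytochrome c, was at 2001 bp in both lists. UQCRQ was the exception, with 2001 bp in control and 0 bp after treatment. The interval of complex III overlaps that of complex I (46.3 to 76.8 for 22 of 35), and 2 of its 8 kept genes, CYC1 and UQCRB, lie on chromosome 8.

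Complex IV had a 5′ peak at 12 of 16 genes in control and 6 of 16 after treatment, and kept 31.8% of the window coverage. COX4I1, a regulatory subunit, was covered over 2001 and 1446 bp, COX5A over 1676 and 825 bp, and COX5B over 2001 and 526 bp. These subunits, which sit around the catalytic core made in the mitochondrion, all stayed marked. COX6C on chromosome 8 was covered over 2001 and 1334 bp and COX8A over 1434 and 572 bp. COX6B1 had 154 bp left of 1921 bp. COX7C and COX6A1, with 1286 and 1529 bp in control, were at 0 bp.

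In the 5′ window, the tissue-restricted forms of complex IV subunits had less control coverage than their widely used counterparts, where the counterpart is a member. The windows of COX4I2 (a form found in lung), COX6A2 (heart and muscle) and COX7B2 were at 0 bp in both lists. COX7B2, whose counterpart COX7B lies on chromosome X, had 8691 bp of control coverage over its region. COX6B2, a testis form, had 50 bp of control coverage, against 1921 bp at COX6B1. COX7A1, of heart and muscle, had 202 bp against 498 bp at COX7A2, and COX8C had 665 bp against 1434 bp at COX8A. The 3 forms with some coverage lay under weak control peaks, with a fold over background between 2.76 and 2.85 in the authors' values, where the median of the members' control 5′ peaks was 5.36. None of them had a 5′ peak after treatment. UQCRHL and ATP5MGL, close relatives of UQCRH and ATP5MG, were also at 0 bp in both windows. COXFA4, the current symbol of NDUFA4, falls outside the symbol rule and was covered over 1769 and 743 bp, and its relative COXFA4L2 (NDUFA4L2) over 1227 and 383 bp.

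Another 3 members at 0 bp in both windows, NDUFA5, COX7A2L and ATP5MC2, have an outermost annotated end far from a RefSeq start, at 43833, 7740 and 6004 bp. Within 1 kb of every listed start they were covered over 966, 1284 and 1935 bp in control and 0, 944 and 546 bp after treatment. COX7A2, whose outermost end carried 498 bp under a weak peak, likewise had 2499 bp in control and 1311 bp after treatment around its listed starts, of which the farther lies 6497 bp away. With every listed start taken, 88 members had a control peak and 60 an SNDX-50469 peak. This setting was chosen after the values were seen.

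Complex V had a 5′ peak at 17 of 19 genes in control and 13 of these 17 (76.5%, 52.7 to 90.4) after treatment. It kept 34.3% of the window coverage. Of the catalytic head, ATP5F1A and ATP5F1B (alpha and beta) were covered over 1582 and 1847 bp in control and 481 and 1060 bp after treatment. ATP5F1A also has a listed start 5931 bp from its outermost end. Within 1 kb of all its listed starts it was covered over 3583 bp in control and 1861 bp after treatment. The central stalk genes ATP5F1C, ATP5F1D and ATP5F1E were covered over 1678, 1727 and 1505 bp in control and 542, 247 and 696 bp after treatment. ATP5F1B was the head or central stalk gene with the highest kept share, 57.4%, and ATP5F1D the one with the lowest, 14.3%. In the peripheral stalk, ATP5PF kept 87.2% (2001 and 1744 bp), ATP5PB 45.3% and ATP5PD 12.3%, and ATP5PO went from 1044 to 0 bp. Of the 3 genes for the subunit of the rotor ring, ATP5MC3 kept 38.6% and ATP5MC1 had no SNDX-50469 peak in its window, against 1495 bp in control.

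Taking the 23 core subunits of all complexes, 23 had a 5′ peak in control and 17 (73.9%, 53.5 to 87.5) after treatment, with 39.3% of the window coverage kept. Those without included NDUFS8, NDUFV1, SDHB, SDHC and SDHD.

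Over gene bodies and flanks, 92 of the 93 genes had control coverage (UQCRHL had none), and in 92 of 92 the covered length was lower after treatment. This count cannot set them apart, since 98.1% of all genes with control coverage were lower. No control coverage at all was kept at 24 of 92 (26.1%), against 44.2% of all genes. Control peaks covered 660541 bp in sum and SNDX-50469 peaks 156009 bp. The kept share was 20.9%, against 11.5% over all genes. The median kept share was 14.2%, against 2.59%. On these measures the regions lay above the background, as the 5′ windows did. Outside the 5′ windows the kept share was 15.8% (all genes 9.21%). Another protein-coding gene lies in the region of 73 members, and its peaks are counted there too.

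A single gene carried much of that sum. NDUFAF6, an assembly factor on chromosome 8, had 136550 bp of control coverage, 20.7% of the members' total, and 43740 bp after treatment. Large regions also lay at NDUFB9 (20080 and 10451 bp), NDUFV2 (17129 and 2268 bp) and COX6C (16892 and 1691 bp), where the median member had 4797 bp in control. Without NDUFAF6 the members kept 20.1% of the region length and 13.4% outside the 5′ windows. After NDUFAF6 and NDUFB9 the largest covered lengths in the SNDX-50469 list were at NDUFC1 (6278 bp), CYC1 (5589 bp) and NDUFAF3 (5394 bp). The highest kept shares among genes with at least 2 kb of control coverage were at UQCRFS1 (63.0%), NDUFC1 (62.3%), NDUFB1 (58.7%), CYC1 (58.4%) and UQCRC2 (54.5%).

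**Figure D3:**
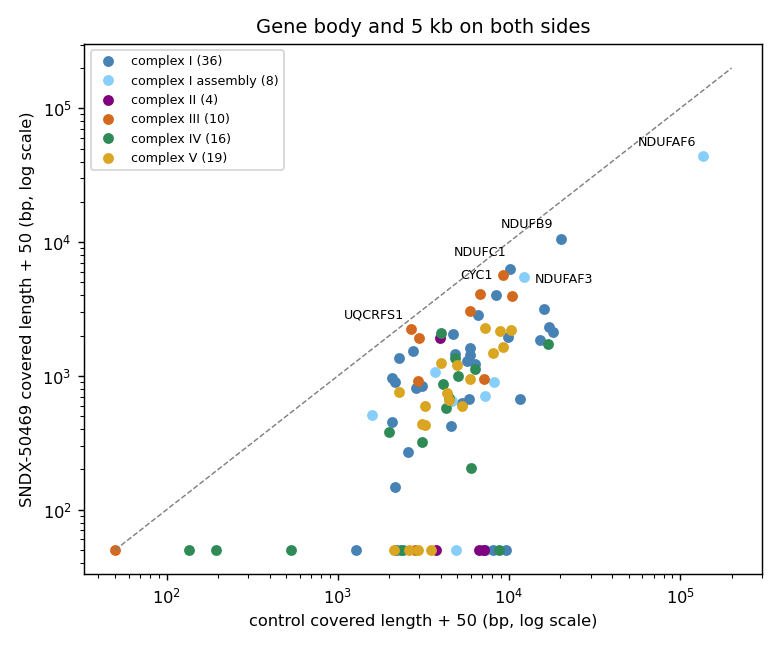
Covered length of the region, from 5 kb before to 5 kb after each gene, in control (x axis) and after SNDX-50469 (y axis), each in bp plus 50 on a log scale, 1 point per gene coloured by complex. All 92 genes with control coverage lie below the dashed line of equal length, those without SNDX-50469 coverage lie on the bottom row, and NDUFAF6 lies alone at the right.

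The 5 members on chromosome 8 had a 5′ peak in both lists (5 of 5) and kept 81.6% of the window coverage and 27.6% of the region. The other 88 members kept 37.6% and 18.1%, and 52 of them had a 5′ peak after treatment. Over all genes the kept shares were likewise higher on chromosome 8, with 54.4% of the window coverage, than on other chromosomes, with 33.6%. Positions covered only in the SNDX-50469 list came to 18183 of the 156009 bp under SNDX-50469 peaks in the regions. They lay in 31 members with a median of 208 bp, and 72.4% of them lay in the chromosome 8 members, chiefly NDUFAF6 (11010 bp) and UQCRB (1848 bp). Summed over the regions of all genes, such positions came to 4085524 of 23944564 bp, of which 2191812 bp lay on chromosome 8. The 5′ window was covered over more bp after treatment than in control at 3 members (NDUFA11, NDUFC1 and UQCRFS1), and at 2.11% of all genes.

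Wider control coverage went with an SNDX-50469 peak, among members and among all genes. Of members with 1 to 1000 bp of control window coverage 3 of 10 (30.0%) had an SNDX-50469 peak, against 12.5% of all such genes. The shares were 8 of 20 (40.0%, against 43.0%) for 1001 to 1500 bp, 22 of 28 (78.6%, against 62.7%) for 1501 to 2000 bp and 24 of 27 (88.9%, against 81.3%) for fully covered windows. The share of all genes lay inside the members' Wilson interval in each of these 4 strata, close to the lower bound at 1 to 1000 bp (10.8 to 60.3) and at 1501 to 2000 bp (60.5 to 89.8). The control 5′ peaks of members that were still marked had a median fold over background of 5.72 and a median width of 2352 bp, and those of members no longer marked 4.65 and 1434.5 bp.

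**Figure D4:**
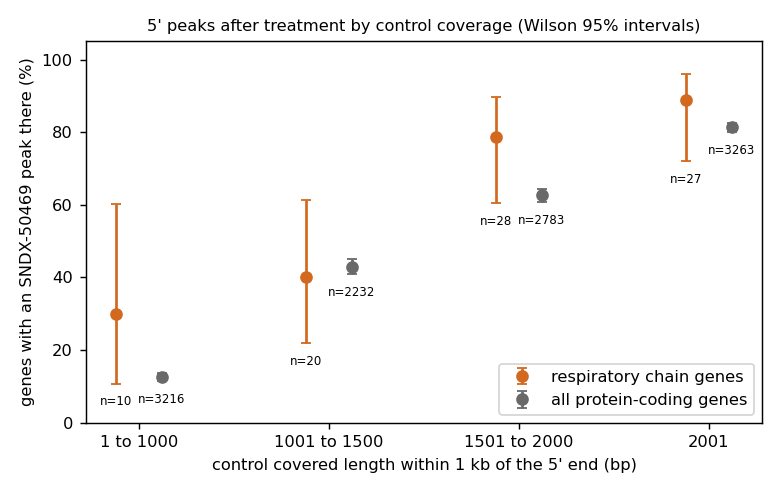
Percent of genes with an SNDX-50469 peak in the 5′ window (y axis) by control covered length of that window (x axis, bp), for the respiratory chain genes (orange) and all protein-coding genes (grey), with Wilson 95% intervals that cover counting error only. The share climbs from 30.0% to 88.9% among the respiratory chain genes and from 12.5% to 81.3% among all genes.

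Ranked within their own list by the authors' fold, the members' control 5′ peaks had a median percentile of 64.8 among the 5′ peaks of all genes, and their SNDX-50469 5′ peaks one of 51.0. The median fold of the SNDX-50469 5′ peaks was 4.199 for members and 4.182 for all genes. A −log10 q of at least 5 was reached by 56 of 85 control peaks (65.9%, against 46.6% of all genes) and by 4 of 57 SNDX-50469 peaks (7.02%, against 12.3%). Those 4 genes were NDUFAF3 (7.47), CYC1 (6.64), UQCRFS1 (5.58) and NDUFB1 (5.38). By rank and median fold the members' SNDX-50469 peaks thus lay near the middle of their list, while a smaller share of them than of all genes passed this cutoff.

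Many of these genes start next to another gene on the opposite strand. A protein-coding neighbour with a divergent start within 1 kb was found at 27 of 93 (29.0%), against 10.3% of all genes, at distances of 35 to 677 bp with a median of 158 bp. Such pairs share a promoter region, so that the peak cannot be given to either gene. Of the 27 members, all had a control 5′ peak and 22 (81.5%, 63.3 to 91.8) an SNDX-50469 peak. Without such a partner 35 of 58 members marked in control (60.3%, 47.5 to 71.9) had one. Over all genes the shares were 63.2% and 47.7%, and the members' intervals overlap. Both genes of the pair UQCRH and LRRC41, 82 bp apart, were fully covered in both lists. Both genes of SDHD and TIMM8B (an import chaperone of mitochondria), 117 bp apart, went from 2001 to 0 bp. SDHA and CCDC127, 167 bp apart, kept most of their coverage, with 1260 and 1139 bp at CCDC127.

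Other genes of the pathway, 48 assembly factors, cytochrome c and regulators outside the symbol rule, had a 5′ peak at 48 of 48 in control and at 35 (72.9%, 59.0 to 83.4) after treatment. They kept 40.7% of the window coverage, close to the 40.8% of the members, and 16.5% of the region. The region was covered less after treatment in 48 of 48, and 11 kept none of it. CYCS, which encodes cytochrome c, was covered over 1617 and 587 bp of its window. SCO2, a copper chaperone of complex IV, ACAD9, an assembly factor of complex I, and COX20 were covered over all 2001 bp in both lists. TIMMDC1, another complex I assembly factor, went from 2001 to 0 bp.

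Set beside other gene families that nearly all cells use, the respiratory chain genes kept less of the 5′ window than ribosomal protein genes and about as much as proteasome genes. The 5′ window was marked in control at 82 of 83 cytosolic ribosomal protein genes and 37 of 40 proteasome subunit genes. After treatment it was marked at 78 (94.0%, 86.7 to 97.4) and 22 (55.0%, 39.8 to 69.3), against 57 of 93 (61.3%) here. The ribosomal interval lies above that of the respiratory chain genes and the proteasome interval overlaps it. The kept share of the window was 63.2% for ribosomal protein genes, 40.8% for the respiratory chain genes and 37.9% for proteasome genes, and without the members on chromosome 8 it was 37.6% for the respiratory chain genes. Over the region it was 25.4%, 20.9% and 13.7%, with 18.1% for the respiratory chain genes off chromosome 8. Outside the 5′ windows it was 13.2% for ribosomal protein genes, 15.8% for the respiratory chain genes and 7.68% for proteasome genes. Off chromosome 8 the respiratory chain genes were at 11.2%. The ribosomal protein and proteasome genes were not split by chromosome, so the values off chromosome 8 have no counterpart among them. How the families compare off chromosome 8 was therefore not tested.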

How the data were processed

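H3K27Ac ChIPmentation of MOLM13 cells was analysed from 1 control and 1 SNDX-50469 library, while the 2 inputs were not used. The submitters' processing notes name Trim Galore 0.6.5, Bowtie2 2.3.4.2, Picard 2.9.0, MACS2 2.1.2 and GRCh38, while the supplementary methods name TopHat2. Their roles, the calling options and the use of an input are not given in the sources used here. The authors deposited 1 broad peak list per library, without pooling. Each deposited peak has a ratio (fold over background), a −log10 p-value, a −log10 q-value and a score, which was not used. These values are relative to each library's own background. They were ranked within a list, and the −log10 q cutoffs used as alternatives were the same for both lists. The −log10 p cutoff used on control peaks was the lowest value among SNDX-50469 peaks.

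Genes came from RefSeq GRCh38.p14, and the 5′ end is the outermost annotated end. Strand was taken from the RefSeq promoter set for 74 members and by symbol from GENCODE, with no coordinates, for 19. An overlap needed 1 bp. Python 3.11.15, numpy 2.4.6, pandas 2.3.3, scipy 1.17.1 and matplotlib 3.10.9 were used, and the interval arithmetic was tested on simulated data. With 1 library per condition no test was made, and Wilson 95% intervals cover counting error only. Named are the core subunits, the isoforms, the members without a control 5′ peak, the 5 with the largest control and treated covered lengths and the highest kept shares, and those on chromosome 8. The members and lists were chosen with earlier results of these data known. Alternatives were other windows, flanks and peak cutoffs, and leaving out gene groups. A member gene is counted but its own values are not reported here.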

Additional observations from a re-analysis of the deposited data

How the results depend on the processing

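No paired analysis was possible because there was only 1 library per arm. At a −log10 q of at least 5 in both lists, 56 members had a control 5′ peak and 4 an SNDX-50469 peak, 6.26% of the window coverage and 5.15% of the region was kept, and the median kept share was 0%. Over all genes that cutoff kept 13.4% of the window coverage. When control peaks below a −log10 p of 3.93, the lowest among SNDX-50469 peaks, were dropped, 30.2% of the region was kept, with a median of 25.5%. With the control list trimmed to the same covered length, 25 members had a control 5′ peak, 73.3% of the window and 53.9% of the region was kept, 25 members were covered less after treatment and the median was 50.8%. The window figure over all genes was then 70.7%. Trimming removes control peaks by construction, and other causes were not tested. In these settings the kept share of the members' windows was above that of all genes except at a −log10 q of at least 5. Other settings were a −log10 q of at least 2, windows of 500 bp or 2 kb, the gene body alone and 10 kb flanks. Chromosome 8, assembly factors and readthrough genes, or NDUFAF6 were also left out, and every listed RefSeq start was taken. Counts stayed within 1.5 times the main ones. Kept shares stayed within intervals of 31.3 to 51.8% (window), 13.6 to 30.0% (region) and 10.9 to 19.6% (median). At a −log10 q of at least 2, 81 members had a control 5′ peak and 41 (44.1%, against 21.0% of all genes) an SNDX-50469 peak. The window kept share was then 34.8%, against 30.9% over all genes. With 500 bp of the window required, 82 and 48 members were marked. Taking every listed start and leaving out NDUFAF6 were chosen after seeing the data. The depth of the libraries is unknown and limits every absence of a peak.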
